A study of Mus musculus with 16 samples.

Results

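Donor T cells were examined for 10 genes that encode regulators of DNA methylation and of Polycomb and heterochromatin marks: the DNA methyltransferases Dnmt1, Dnmt3a and Dnmt3b, the maintenance factor Uhrf1, the histone methyltransferases Ezh2 and Suv39h1, the DNA dioxygenases Tet1, Tet2 and Tet3, and the histone demethylase Kdm6b. They were chosen by name, as 10 of the 20972 genes named on the array, and with earlier results of these data known. A probe was assigned to a gene through its RefSeq accession. Together 17 probes matched, and each gene is described by its probe with the highest mean signal over all arrays. All 10 genes passed the filter on dim signals.

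DNA methylation at CpG sites silences genes and repeats and is copied at each cell division: UHRF1 binds hemimethylated DNA behind the replication fork and brings in DNMT1, while DNMT3A and DNMT3B add methyl groups to unmethylated sites. TET enzymes oxidise 5-methylcytosine and so start its removal. EZH2, the catalytic subunit of Polycomb repressive complex 2 (PRC2), methylates lysine 27 of histone H3 (H3K27), KDM6B removes that mark, and SUV39H1 methylates lysine 9 of the same histone (H3K9) in heterochromatin. In T cells these enzymes are known to take part in the passage of naive cells to effector and memory states.

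The study used 16 one-colour arrays to profile transplanted T cells in graft-versus-host disease of the ovary, where donor lymphocytes injure host tissue. Allogeneic recipients gave CD8+ cells from the ovary (4 arrays) and spleen (3 arrays) and CD4+ cells from the ovary and spleen (2 arrays each), and syngeneic recipients, whose graft does not see foreign antigens, gave splenic CD8+ cells (3 arrays) and splenic CD4+ cells (2 arrays). All samples are labelled as female mice of C57BL/6 background, and the cells were double-sorted and their RNA amplified before labelling. No ovarian cells of syngeneic recipients were analysed here, and the labels used here give no recipient strain, animal age or time after transplantation.

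Levels are given as the log2 signal of a probe minus the log2 of its array's 75th percentile, so a level of 0 equals that percentile and levels of different probes are not compared. The 75th percentile ran from 67.6 to 450 signal units, and replicate 2 of ovarian CD4 cells and replicate 2 of allogeneic splenic CD4 cells were the dimmest arrays (68.2 and 67.6). Cd8a was well above background on all CD8 arrays (4.71 to 5.82) and on 0 of the CD4 arrays, whereas Cd4 read 1.42 to 2.45 on CD8 arrays, where it was also well above background, and 4.48 to 5.56 on CD4 arrays. Cd8b1, the other CD8 chain, read 5.36 to 6.74 on CD8 arrays and -2.82 to 0.17 on CD4 arrays, where it was well above background on 5 of 6. It was lower in allogeneic than in syngeneic splenic cells, by limma, in CD8 (-0.79 ± 0.25, adjusted p = 0.0239) and in CD4 cells (-1.80 ± 0.30, adjusted p = 0.00207), and the part of this in the results was not tested. Differences are on the log2 scale with the standard error (SE) of a limma fit over all 16 arrays, and a gene is said to have risen or fallen only at a Benjamini-Hochberg adjusted p under 0.05 over 22830 features. Whether replicates are separate animals is not given in the labels, and p-values therefore reflect the spread among these arrays, which may be technical.

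Promoter windows from RefSeq (GRCm38.p6, 250 bases before to 50 bases after a transcript start) were found for 9 of the 10 genes, 15 windows in all. They were searched on both strands for TTTCCCGC, TTTGGCGC and TTTCGCGC, letters like those bound by E2F factors, which drive genes of DNA replication. A match was found in 3 of the 9 genes, Dnmt1, Uhrf1 and Ezh2, and a part of E2F factors in the results was not tested. The windows with a match are shown, 5′ to 3′ on the strand of the gene, with the matches in capitals.
Dnmt1, chr9:20952574-20952873, minus strand: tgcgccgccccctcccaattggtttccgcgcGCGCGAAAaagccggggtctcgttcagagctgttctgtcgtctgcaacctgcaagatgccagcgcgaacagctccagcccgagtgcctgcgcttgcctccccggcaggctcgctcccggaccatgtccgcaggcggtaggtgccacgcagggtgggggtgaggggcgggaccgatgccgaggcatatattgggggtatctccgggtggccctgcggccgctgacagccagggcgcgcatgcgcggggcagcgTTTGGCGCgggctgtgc
Uhrf1, chr17:56304063-56304362, plus strand: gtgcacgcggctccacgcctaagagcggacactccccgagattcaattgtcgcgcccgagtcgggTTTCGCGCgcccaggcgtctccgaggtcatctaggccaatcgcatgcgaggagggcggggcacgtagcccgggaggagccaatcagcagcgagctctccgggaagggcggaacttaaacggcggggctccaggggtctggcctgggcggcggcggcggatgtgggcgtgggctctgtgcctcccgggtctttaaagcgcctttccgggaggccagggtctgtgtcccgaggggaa
Ezh2, chr6:47594981-47595280, minus strand: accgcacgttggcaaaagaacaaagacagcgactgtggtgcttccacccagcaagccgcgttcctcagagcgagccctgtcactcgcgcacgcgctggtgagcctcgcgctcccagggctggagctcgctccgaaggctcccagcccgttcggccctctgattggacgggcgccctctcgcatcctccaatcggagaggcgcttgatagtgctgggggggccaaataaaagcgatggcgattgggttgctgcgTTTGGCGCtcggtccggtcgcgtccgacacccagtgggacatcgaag
The Dnmt1 window, 1 of 3 for that gene, holds TTTCGCGC on the opposite strand with its leftmost base at position -219 and TTTGGCGC at position 34, counted from the first transcribed base. The Uhrf1 window, 1 of 2, holds TTTCGCGC at position -185, and the only Ezh2 window holds TTTGGCGC at position 4. Of all 32851 promoter windows of this length, 1.84% hold any of the 3 words and 0.0761% hold at least 2 matches. These shares and those below are per window, whereas the members are counted per gene, over 1 to 3 windows each. The shown windows are rich in G and C (69.7% for Dnmt1, 68.3% for Uhrf1 and 64.3% for Ezh2, against a median of 52.7% over all windows), and the shares were not matched for this. The word TTTGAA, like the CHR element of genes expressed in G2 and mitosis, was in another Dnmt1 window and in the Dnmt3b window, as in 17.9% of all windows. GGGCGG, like the site of SP1, was in a window of each gene searched except Ezh2 and is in 35.7% of all windows. A match is a description of the letters only.

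Allogeneic and syngeneic splenic CD8 cells were compared to ask how the alloreactive setting changes donor T cells outside the target organ. Of the 10 genes, 4 rose in allogeneic CD8 cells (Uhrf1, Ezh2, Dnmt1 and Dnmt3b), 3 fell (Tet1, Kdm6b and Tet3) and 3 did not pass the test. Over all features 38.4% passed, 18.8% higher and 19.6% lower, with a median difference of -0.16, so a call in this comparison was common on the array. Each of the 7 called genes had arrays that did not overlap between the groups, as did 53.5% of all features. In bulk samples, fewer cells of a type and less RNA per cell cannot be told apart.

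**Figure D1:**
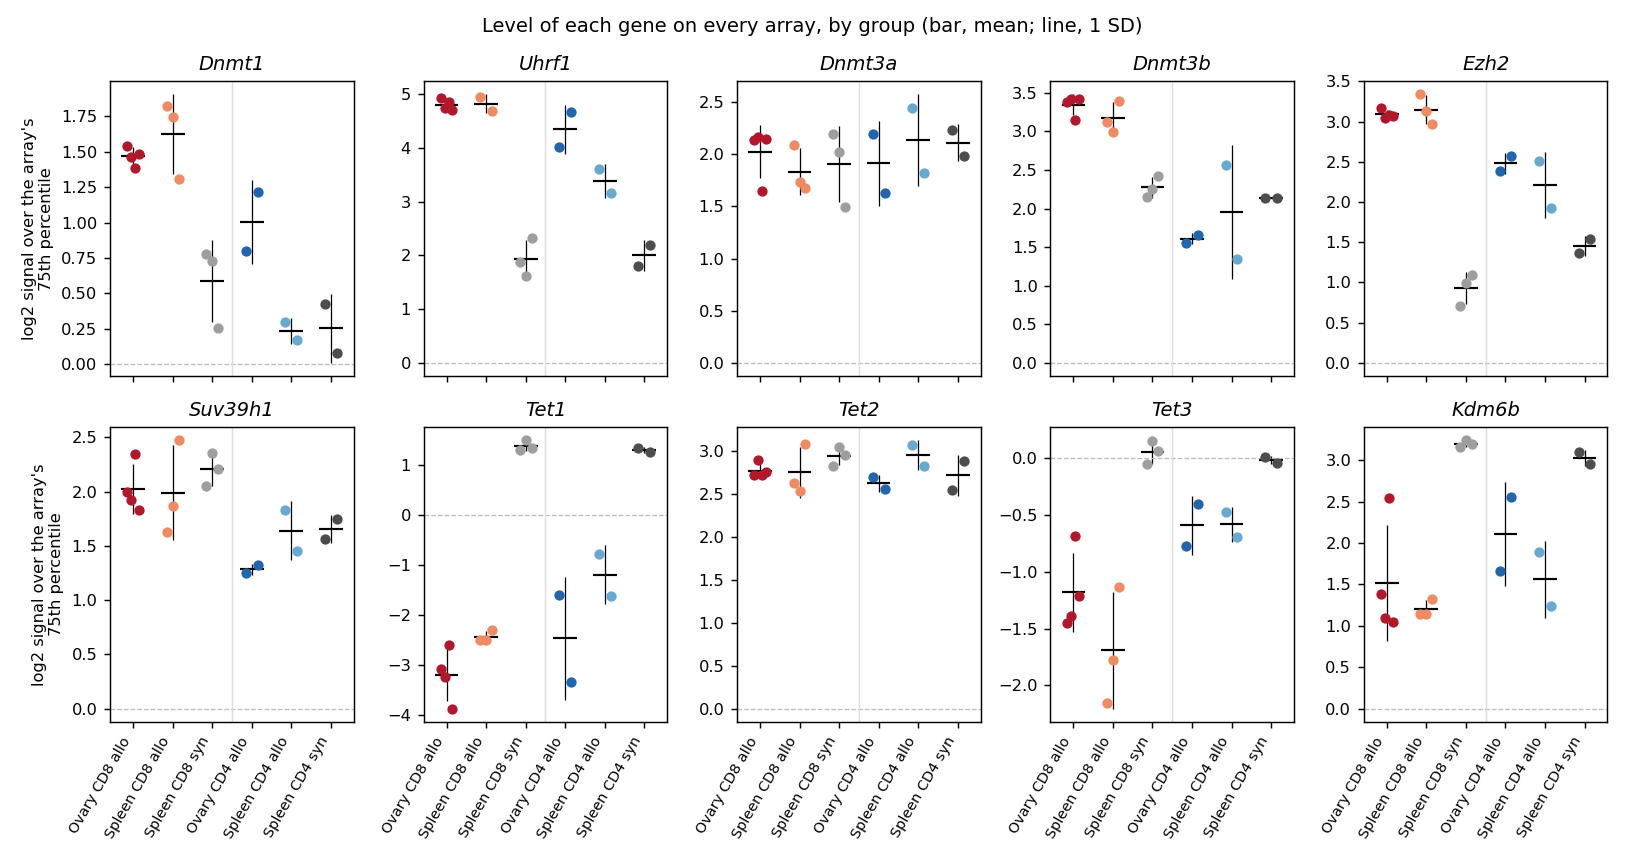
Level of each of the 10 genes on every array, as log2 signal over the array's 75th percentile (dashed line at 0), with 1 panel per gene and its own vertical range. Points are arrays, bars group means and vertical lines 1 SD; CD8 groups stand left and CD4 groups right of the grey line. Uhrf1 and Ezh2 lie above both syngeneic groups in all 4 allogeneic groups, and Tet1 and Kdm6b lie below them.

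Uhrf1 had levels of 4.94 and 4.70 in allogeneic splenic CD8 cells, against 1.88, 1.63 and 2.32 in syngeneic splenic CD8 cells. The spot of allogeneic replicate 1 was flagged as an outlier by the scanner software and was left out, so that group has 2 values. Uhrf1 was thus 7.36-fold higher in allogeneic cells, a difference of 2.88 ± 0.25 (limma, adjusted p = 5.53e-06), and with the flagged spot kept it was 2.56. In CD4 cells it read 3.61 and 3.17 in allogeneic spleens, against 1.80 and 2.20 in syngeneic spleens. The groups did not overlap there either, as for 51.2% of all features, and Uhrf1 rose by 1.39 ± 0.28 (2.62-fold, adjusted p = 0.00665). Without replicate 1 of the syngeneic CD4 cells that difference was 1.19 (adjusted p = 0.0698).

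Dnmt1, the maintenance methyltransferase that UHRF1 recruits, read 1.82, 1.75 and 1.30 in allogeneic splenic CD8 cells, against 0.78, 0.73 and 0.26 in syngeneic splenic CD8 cells. Its rise of 1.04 ± 0.19 (2.05-fold, adjusted p = 0.00098) was smaller than that of Uhrf1, and replicate 3 was the lowest array of both groups. In CD4 cells Dnmt1 was at 0.30 and 0.17 in allogeneic spleens and at 0.43 and 0.08 in syngeneic spleens. The CD4 groups overlapped, and their difference of -0.02 ± 0.23 (95% interval -0.52 to 0.48, adjusted p = 0.968) did not pass.

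The de novo methyltransferases differed from each other. Dnmt3b read 3.13, 2.99 and 3.40 in allogeneic splenic CD8 cells and 2.15, 2.26 and 2.42 in syngeneic splenic CD8 cells, a rise of 0.89 ± 0.24 (1.86-fold, adjusted p = 0.0124). In CD4 cells the allogeneic arrays stood far apart at 2.57 and 1.34, on either side of both syngeneic arrays at 2.14, and the difference of -0.18 ± 0.30 did not pass (adjusted p = 0.732). Without allogeneic replicate 1 of the CD4 cells it was -0.80 (adjusted p = 0.0235), and without allogeneic replicate 2 it was 0.43 (adjusted p = 0.174). Of the other Dnmt3b probes, with all arrays kept, both rose in CD8 cells (0.67 ± 0.16 and 0.93 ± 0.21), and in CD4 cells 1 fell (-0.81 ± 0.20, adjusted p = 0.0196) and 1 did not pass (-0.36 ± 0.26, adjusted p = 0.402). Dnmt3a, the methyltransferase known from exhausted and memory CD8 cells, was at 2.09, 1.74 and 1.67 in allogeneic splenic CD8 cells and at 2.20, 2.02 and 1.50 in syngeneic splenic CD8 cells. Its groups overlapped in both subsets, with differences of -0.07 ± 0.25 in CD8 cells (95% interval -0.61 to 0.47) and 0.02 ± 0.30 in CD4 cells (-0.64 to 0.68).

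Ezh2 read 3.34, 3.13 and 2.97 in allogeneic splenic CD8 cells, against 0.71, 0.99 and 1.095 in syngeneic splenic CD8 cells. The lowest allogeneic array stood far above the highest syngeneic one, and the rise of 2.21 ± 0.17 (4.64-fold, adjusted p = 9.32e-07) had the smallest p of the 10 genes. In CD4 cells Ezh2 was at 2.50 and 1.93 in allogeneic spleens and at 1.37 and 1.54 in syngeneic spleens, again without overlap. That rise of 0.76 ± 0.21 (1.69-fold, adjusted p = 0.0268) missed the threshold without allogeneic replicate 1 (0.47, adjusted p = 0.14), without syngeneic replicate 1 (0.67, adjusted p = 0.169) and without syngeneic replicate 2 (0.85, adjusted p = 0.0588). Suv39h1 did not pass in either subset. It was at 1.63, 1.86 and 2.47 in allogeneic splenic CD8 cells and at 2.05, 2.36 and 2.21 in syngeneic splenic CD8 cells, with overlapping groups and differences of -0.22 ± 0.21 in CD8 and -0.01 ± 0.26 in CD4 cells.

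Tet1 had the largest difference of the 10 genes. It read -2.50, -2.49 and -2.30 in allogeneic splenic CD8 cells, against 1.30, 1.49 and 1.34 in syngeneic splenic CD8 cells, and it was well above background on all of these arrays. The difference was -3.81 ± 0.40 (14.1-fold lower, adjusted p = 1.27e-05). In CD4 cells Tet1 read -0.77 and -1.61 in allogeneic spleens, against 1.34 and 1.25 in syngeneic spleens, a difference of -2.49 ± 0.49 (5.60-fold lower, adjusted p = 0.00524). Another probe of Tet1 showed a smaller difference of -1.10 ± 0.19 in CD8 cells (adjusted p = 0.000701) and a difference of -0.49 ± 0.23 in CD4 cells that did not pass (adjusted p = 0.187), so the size of the fall differed with the probe.

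Tet3 read -2.15, -1.77 and -1.13 in allogeneic splenic CD8 cells and -0.05, 0.16 and 0.07 in syngeneic splenic CD8 cells, a difference of -1.74 ± 0.25 (3.35-fold lower, adjusted p = 0.000184). In CD4 cells its arrays were at -0.47 and -0.69 in allogeneic spleens and at 0.01 and -0.04 in syngeneic spleens, without overlap, and the difference of -0.57 ± 0.31 did not pass (adjusted p = 0.243). The other probes of Tet3 fell by 0.72 and 1.71 in CD8 cells, and 1 of them also fell in CD4 cells (-1.11 ± 0.22, adjusted p = 0.00651). Tet2, the family member most studied in T-cell memory, stayed between 2.54 and 3.09 on all 10 splenic arrays. Its differences of -0.19 ± 0.16 in CD8 and 0.23 ± 0.20 in CD4 cells did not pass (95% intervals -0.54 to 0.16 and -0.19 to 0.66).

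Kdm6b read 1.15, 1.14 and 1.33 in allogeneic splenic CD8 cells, against 3.16, 3.24 and 3.20 in syngeneic splenic CD8 cells. The syngeneic arrays lay within a narrow range far above the allogeneic ones, and the difference was -1.99 ± 0.35 (3.98-fold lower, adjusted p = 0.000804). In CD4 cells Kdm6b was at 1.89 and 1.23 in allogeneic spleens and at 3.10 and 2.96 in syngeneic spleens, a difference of -1.47 ± 0.43 (2.77-fold lower, adjusted p = 0.0379). That CD4 call was lost without allogeneic replicate 2 (-1.14, adjusted p = 0.163), without syngeneic replicate 1 (-1.40, adjusted p = 0.178) and without syngeneic replicate 2 (-1.54, adjusted p = 0.099).

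In CD4 cells 4 of the 10 genes were called between allogeneic and syngeneic spleens, Uhrf1 and Ezh2 higher and Tet1 and Kdm6b lower, where 16.1% of all features were called (10.4% higher and 5.70% lower). By the brightest probes, none of the 10 genes was called in opposite directions in the subsets, whereas 1 of the other Dnmt3b probes was, higher in CD8 and lower in CD4 cells as given above. With only the CD4 groups in the limma fit, 0 of the 10 genes and 0.0307% of features were called, and the adjusted p of these 4 genes ran from 0.092 to 0.346. The CD8 and CD4 comparisons share no arrays.

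**Figure D2:**
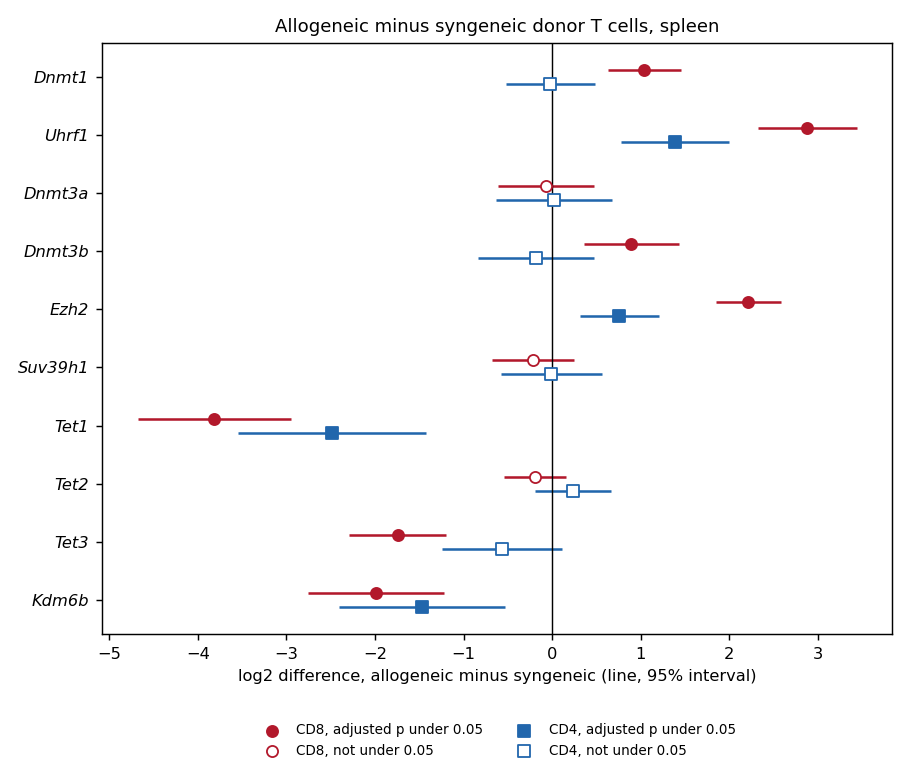
Log2 difference of each gene between allogeneic and syngeneic splenic cells, in CD8 cells (circles) and CD4 cells (squares), with 95% intervals from limma; filled symbols have an adjusted p under 0.05. In CD8 cells 4 genes lie to the right of 0 and 3 to the left with filled symbols, from 2.88 for Uhrf1 to -3.81 for Tet1.

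The arrays lie on 2 slides, each holding every group. With the slide as a block, the 7 calls in CD8 cells and the 4 in CD4 cells were made again. On slide 1 alone the CD8 differences were 3.07 for Uhrf1, 2.52 for Ezh2, 1.01 for Dnmt1, 0.91 for Dnmt3b, -3.80 for Tet1, -1.91 for Tet3 and -2.02 for Kdm6b, all called. On slide 2 alone, which holds 1 allogeneic and 2 syngeneic splenic CD8 arrays, they were 2.72 for Uhrf1, 1.93 for Ezh2 and -3.72 for Tet1, which were called, and 0.81 for Dnmt1, 1.06 for Dnmt3b, -1.25 for Tet3 and -1.89 for Kdm6b, which were not (adjusted p between 0.0879 and 0.181). In CD4 cells the 2 slides gave 1.81 and 0.97 for Uhrf1, 1.14 and 0.38 for Ezh2, -2.11 and -2.86 for Tet1 and -1.21 and -1.73 for Kdm6b, with calls on slide 1 only. Every one of these differences kept its sign on both slides.

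Other genes of these pathways were read from lists of related genes, which include the members. Over all features 38.4% were called between the CD8 groups and 16.1% between the CD4 groups. The list of writers and maintenance factors of DNA methylation also held the tRNA methyltransferase gene Trdmt1. Of its 10 tested genes, members included, 7 rose and 1 fell in allogeneic CD8 cells (median difference 0.88, against -0.16 over all features). Without the members, 4 of 6 rose and 1 fell (median 0.69). Among them Hells, a chromatin remodeller needed for DNA methylation, rose by 2.73 ± 0.31 and its partner Cdca7 by 1.93 ± 0.32, and Usp7, a deubiquitinase that stabilises DNMT1, fell by 0.55. In CD4 cells 1 of the 10 rose (Uhrf1) and 1 fell (Usp7, -0.49 ± 0.15), with a median of 0.28, or 0.54 without the members. Of 13 demethylation genes, 3 rose and 5 fell in CD8 cells (median -0.19) and 2 rose and 2 fell in CD4 cells (median 0.18). Tet1, Tet2 and Tet3 are among them, and of the other 10 genes 3 rose and 3 fell in CD8 cells (median 0.30). In CD4 cells 2 of those 10 rose and 1 fell (median 0.20). Cxxc5, which encodes a CXXC-domain protein, fell by 3.20 ± 0.27 in CD8 and by 2.89 ± 0.33 in CD4 cells, and the cytidine deaminase gene Apobec1 rose by 1.85 ± 0.29 in CD4 cells.

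Of 13 PRC2 genes, 5 rose and 3 fell in allogeneic CD8 cells (median 0.17), and 1 rose and 1 fell in CD4 cells (median 0.25). Without Ezh2, 4 of 12 rose and 3 fell in CD8 cells (median 0.17), and 0 rose and 1 fell in CD4 cells (median 0.22). Besides Ezh2, the accessory subunit gene Phf19 rose by 1.92 ± 0.22 in CD8 cells, and Epop, another accessory subunit gene, fell by 0.81 ± 0.18 in CD8 and by 0.87 ± 0.23 in CD4 cells. Of 21 genes of Polycomb repressive complex 1 (PRC1), 5 rose and 3 fell in CD8 cells (median -0.23) and 1 rose and 3 fell in CD4 cells (median -0.15). Over all features 38.4% were called in CD8 and 16.1% in CD4 cells, so calls of PRC1 genes were about as common as on the whole array. Kdm2b, whose product guides a PRC1 form to CpG islands, rose by 1.31 ± 0.21 in CD8 and by 1.06 ± 0.26 in CD4 cells, and Yaf2 rose by 0.95 ± 0.14 in CD8 cells. The E3 ligase gene Rnf2 was called in opposite directions, at 0.63 ± 0.11 in CD8 and -0.43 ± 0.13 in CD4 cells, and Rybp fell by 0.85 ± 0.20 in CD4 cells.

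Of 12 H3K27 demethylase and trithorax genes, 2 rose and 4 fell in allogeneic CD8 cells (median -0.28), and 1 gene, Kdm6b, fell in CD4 cells (median -0.24). Without Kdm6b, 2 of 11 rose and 3 fell in CD8 cells (median -0.18). The H3K4 methyltransferase gene Kmt2c fell by 1.46 ± 0.22 and the complex subunit gene Ash2l rose by 0.73 ± 0.13 in CD8 cells. Of 16 H3K9 and heterochromatin genes, 5 rose and 2 fell in CD8 cells (median -0.06) and 0 were called in CD4 cells (median 0.05). The heterochromatin protein genes Cbx3 and Cbx5 rose by 0.99 ± 0.14 and 1.09 ± 0.18 and the demethylase gene Kdm4a by 0.97 ± 0.14. Of 8 readers of methylated CpG, 2 rose and 1 fell in CD8 cells (median 0.10), with Zbtb38 at 1.47 ± 0.28, Mbd2 at 0.70 ± 0.18 and Zbtb4 at -0.70 ± 0.18, and 0 were called in CD4 cells (median 0.03). In CD8 cells, where 38.4% of all features were called, calls on the H3K9 and CpG reader lists were also about as common as on the whole array.

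Genes of DNA replication and mitosis moved with these results, and their part in them was not tested. Of 26 such genes tested, 24 rose in allogeneic CD8 cells (median 2.77) and 14 in allogeneic CD4 cells (median 1.02), and 0 fell in either. The proliferation marker Mki67 rose by 3.84 ± 0.22 in CD8 and 1.88 ± 0.27 in CD4 cells, Top2a, the DNA topoisomerase of dividing cells, by 4.18 ± 0.27 and 1.90 ± 0.29, and Mcm5 and Pcna, of the replication helicase and sliding clamp, by 2.16 ± 0.20 and 1.17 ± 0.18 in CD8 cells. In CD4 cells Mcm5 (0.50 ± 0.25, adjusted p = 0.194) and Pcna (0.15 ± 0.22, adjusted p = 0.709) did not pass. The mean level of the 26 genes was 3.45 ± 0.04 in ovarian CD8 cells (SD, n = 4), 3.73 ± 0.24 in allogeneic splenic CD8 cells (n = 3) and 0.91 ± 0.15 in syngeneic splenic CD8 cells (n = 3). In CD4 cells it was 2.62 ± 0.33 in the ovary, 1.86 ± 0.02 in allogeneic spleens and 1.05 ± 0.12 in syngeneic spleens (n = 2 each). The 6 groups stood in the same order by this mean as by the mean level of Uhrf1.

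**Figure D3:**
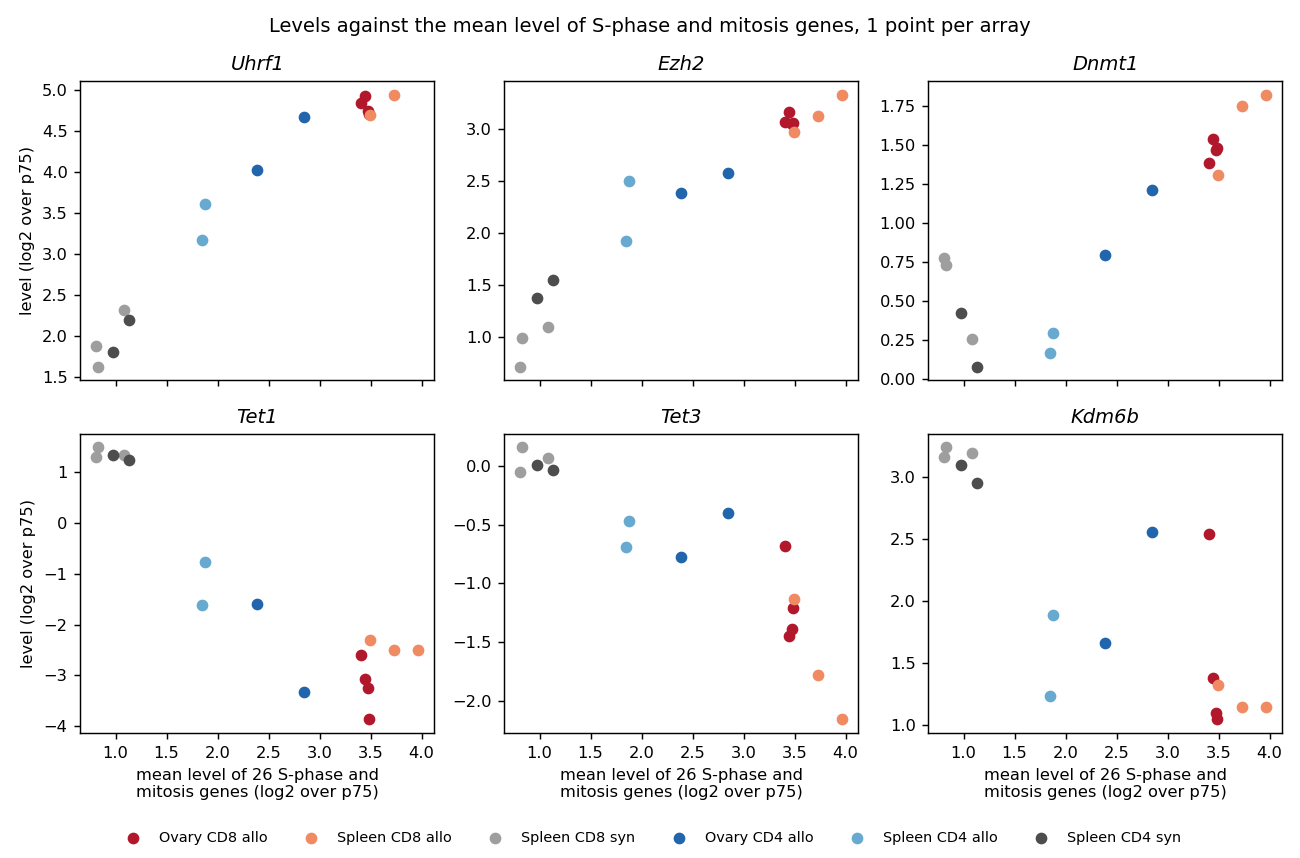
Level of 6 of the genes (vertical axis) against the mean level of 26 S-phase and mitosis genes (horizontal axis) on each array, both as log2 signal over the array's 75th percentile (p75), coloured by group. Uhrf1 and Ezh2 are high where that mean is high, Tet1, Tet3 and Kdm6b are low there, and Dnmt1 is highest in the 2 allogeneic CD8 groups.

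Markers of other cells differed between the groups as well, and their part in the results was not tested. Of 5 B-cell markers, 4 were lower in allogeneic than in syngeneic CD8 cells (median -2.18) and 2 in CD4 cells (median -2.31). Their mean level ran from -2.33 to -2.20 in allogeneic and from -0.66 to 0.27 in syngeneic splenic CD8 arrays, and from -0.81 to -0.51 in allogeneic and from 0.78 to 1.74 in syngeneic splenic CD4 arrays. Of 5 macrophage markers, 1 was lower in allogeneic CD8 cells (Lyz2) and 0 were called between the CD4 groups, where the mean level ran from 1.17 to 1.39 in allogeneic and from -0.22 to 0.42 in syngeneic arrays. Of 4 markers of natural killer and dendritic cells, 2 were lower in allogeneic CD4 cells (Klrb1c and Flt3, list median -2.34) and 1 in allogeneic CD8 cells (Flt3, list median -0.02). Their mean level ran from 0.08 to 0.22 in allogeneic and from 1.34 to 3.21 in syngeneic splenic CD4 arrays.

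The response to allogeneic transplantation was then compared between subsets, as the allogeneic minus syngeneic difference in CD8 cells minus that in CD4 cells. It was larger in CD8 cells for 3 of the 10 genes, Ezh2 (1.46 ± 0.27, adjusted p = 0.00592), Uhrf1 (1.49 ± 0.37, adjusted p = 0.0275) and Dnmt1 (1.06 ± 0.30, adjusted p = 0.0399), where 11.9% of all features were called (5.27% higher and 6.68% lower). For Ezh2 the call was made again without each array in turn, with adjusted p up to 0.027. For Dnmt1 it was lost without CD8 allogeneic replicate 1 or 2, CD8 syngeneic replicate 2 or 3, CD4 allogeneic replicate 2, or CD4 syngeneic replicate 1 or 2, with values from 0.88 to 1.23 and adjusted p up to 0.156. For Uhrf1 it was lost without CD8 allogeneic replicate 2, CD8 syngeneic replicate 1 or 2, CD4 allogeneic replicate 2 or CD4 syngeneic replicate 2, with values from 1.27 to 1.46 and adjusted p up to 0.0874, and with the outlier-flagged spot kept (1.17 ± 0.45, adjusted p = 0.11). The Uhrf1 call was also lost with quantile normalization (1.29, adjusted p = 0.0523), with normexp (0.97, adjusted p = 0.109) and with the authors' series table (1.19, adjusted p = 0.106). In all, the call was lost in 14 of 24 alternatives for Uhrf1, 12 of 24 for Dnmt1 and 1 of 24 for Ezh2 (slide 2 alone).

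The remaining genes did not pass in this comparison. Dnmt3b had an interaction of 1.08 ± 0.39 (adjusted p = 0.0896), and its other probes had 1.47 ± 0.26 and 1.28 ± 0.33 (adjusted p = 0.0056 and 0.0323). Without CD4 allogeneic replicate 1 the first probe had 1.69 ± 0.24 (adjusted p = 0.00197). Tet3 had -1.18 ± 0.40 (adjusted p = 0.0759), which passed without CD8 allogeneic replicate 3 (-1.45, adjusted p = 0.0163), and Tet1 had -1.33 ± 0.63 (adjusted p = 0.182). Kdm6b, Tet2, Suv39h1 and Dnmt3a lay between -0.53 and -0.09 with intervals that included 0. Of the related lists, 19 of 26 replication and mitosis genes were larger in CD8 cells. So were 2 of 13 PRC2 genes (Ezh2 and Phf19, 1.74 ± 0.34) and 3 of 10 genes on the list of DNA methylation. The latter were Uhrf1, Dnmt1 and, of the 6 that are not members, the tRNA methyltransferase gene Trdmt1 (1.23 ± 0.26). Of 13 demethylation genes 0 were called. Over all features 11.9% were called.

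CD8 and CD4 cells were also compared directly within each setting. In allogeneic spleens 5 of the 10 genes differed, where 29.4% of all features were called (15.2% higher and 14.3% lower in CD8 cells). Uhrf1 was higher in CD8 cells by 1.43 ± 0.28 (adjusted p = 0.0036), Dnmt1 by 1.39 ± 0.21 (adjusted p = 0.000777), Dnmt3b by 1.21 ± 0.27 (adjusted p = 0.00689) and Ezh2 by 0.93 ± 0.19 (adjusted p = 0.00383). The 3 levels of Dnmt1 in CD8 cells (1.30 to 1.82) all lay above its 2 levels in CD4 cells (0.17 and 0.30), an absence of overlap shared by 49.3% of all features. The Dnmt3b difference was 1.83 without CD4 allogeneic replicate 1 and 0.60 without CD4 allogeneic replicate 2, called in both cases (adjusted p up to 0.042). Tet3 was lower in CD8 cells (-1.11 ± 0.28, adjusted p = 0.0131), a call lost without CD4 allogeneic replicate 1 (-0.996). Of the other Tet3 probes, 1 was lower (-0.61 ± 0.20, adjusted p = 0.0423) and 1 did not pass (-0.34 ± 0.20, adjusted p = 0.23). Tet1 had -1.24 ± 0.45 (adjusted p = 0.0536). With only these 2 groups in the limma fit, 0 of the 10 genes were called, and the adjusted p of the 5 genes ran from 0.0506 to 0.144.

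In the ovary, 3 of the 10 genes were higher in CD8 than in CD4 cells, where 17.5% of all features were called (8.47% higher and 9.04% lower). Dnmt3b read 3.38, 3.42, 3.15 and 3.42 in ovarian CD8 cells, against 1.56 and 1.66 in ovarian CD4 cells. This was the widest separation of the 10 genes between ovarian subsets, 1.74 ± 0.26 (3.33-fold, adjusted p = 0.00113), and it was called with each array left out (adjusted p up to 0.0121) and by the other Dnmt3b probes (1.24 ± 0.17 and 1.005 ± 0.223). Suv39h1 read 1.99, 1.92, 2.35 and 1.83 in ovarian CD8 cells, against 1.25 and 1.32 in ovarian CD4 cells, a difference of 0.74 ± 0.23 (adjusted p = 0.0433). Ezh2 read 3.16, 3.05, 3.07 and 3.07 in ovarian CD8 cells, against 2.39 and 2.58 in ovarian CD4 cells, a difference of 0.61 ± 0.18 (adjusted p = 0.0362). The arrays of both genes did not overlap, as for 48.0% of all features, but neither call survived leaving out any 1 of the 6 ovarian arrays, with differences from 0.63 to 0.80 for Suv39h1 and from 0.51 to 0.70 for Ezh2 and adjusted p from 0.0521 to 0.17. Without CD4 replicate 2, the dim array on which Tet1 was not well above background, Tet1 was lower in CD8 cells (-1.60 ± 0.39, adjusted p = 0.0342, against -0.73 ± 0.42 with it), and without CD8 replicate 3 Kdm6b was lower (-0.93 ± 0.25, adjusted p = 0.0293, against -0.59 ± 0.37 with it).

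In syngeneic spleens 0 of the 10 genes were called between CD8 and CD4 cells by limma, where 4.14% of all features were. The unadjusted p was under 0.05 for 3251 of 22830 features and for 2 of the 10 genes. Those were Ezh2, at 0.71 to 1.095 in CD8 and 1.37 and 1.54 in CD4 cells, without overlap, as for 34.3% of all features (-0.52 ± 0.19, adjusted p = 0.184), and Suv39h1 (0.56 ± 0.24, adjusted p = 0.304). Uhrf1 differed by -0.06 ± 0.25 and Dnmt1 by 0.33 ± 0.21 there. The allogeneic and syngeneic comparisons of subsets share no arrays, and the test of their difference is the interaction given above.

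**Figure D4:**
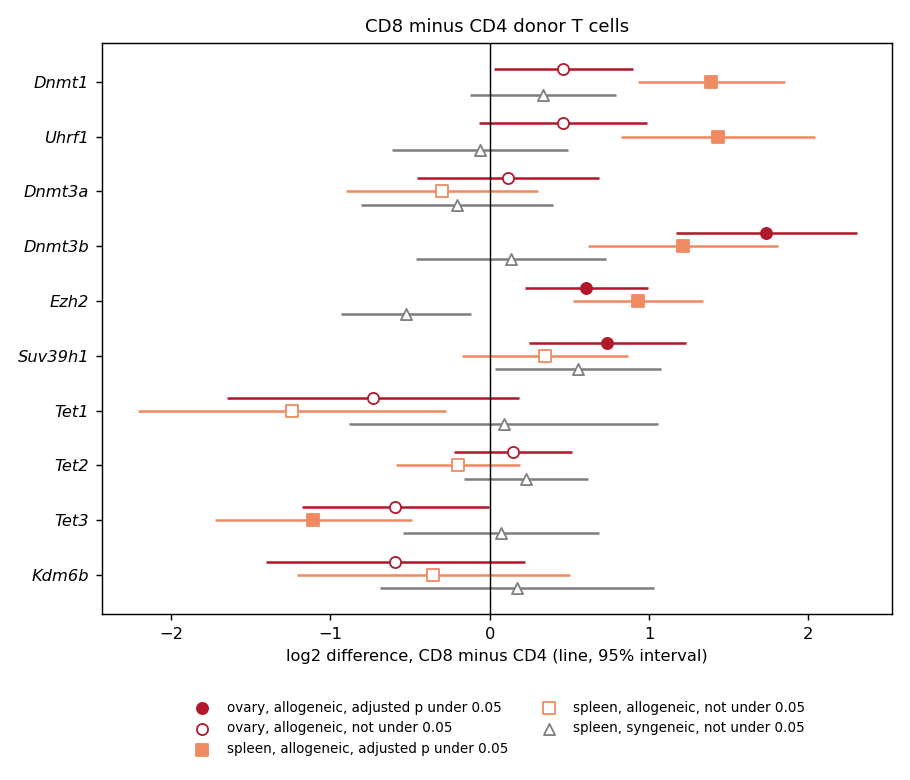
Log2 difference of each gene between CD8 and CD4 cells in the ovary (circles), in allogeneic spleens (squares) and in syngeneic spleens (triangles), with 95% intervals from limma; filled symbols have an adjusted p under 0.05. Filled symbols stand for 3 genes in the ovary, 5 in allogeneic spleens and 0 in syngeneic spleens.

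By slide, the block left these 8 calls in place, and slide 1 alone gave 1.85 for Dnmt3b, 0.71 for Suv39h1 and 0.72 for Ezh2 in the ovary, against 1.63, 0.77 and 0.49 on slide 2. In allogeneic spleens slide 1 and slide 2 gave 1.49 and 1.14 for Dnmt1, 1.34 and 1.53 for Uhrf1, 0.73 and 1.05 for Ezh2, 0.49 and 2.05 for Dnmt3b and -1.49 and -0.44 for Tet3. Dnmt3b and Tet3 thus differed most in size between slides in the spleen, and 0 of the 8 calls were made on slide 2 alone. On slide 1 alone 5 of the 8 were made, and those of Ezh2 (adjusted p = 0.0626) and Suv39h1 (adjusted p = 0.0656) in the ovary and of Dnmt3b in the spleen (adjusted p = 0.0512) were not. In the related lists, 23 of 26 replication and mitosis genes were higher in CD8 cells of allogeneic spleens, 13 in the ovary and 1, Ccne1, in syngeneic spleens. Of 13 PRC2 genes, 4 were higher and 0 lower in the ovary, and 4 were higher and 1 lower (Jarid2, -0.84 ± 0.22) in allogeneic spleens, with Phf19 at 0.87 ± 0.23 and 1.95 ± 0.24. Ezh2 is among those higher in both, and over all features 17.5% were called in the ovary and 29.4% in allogeneic spleens. Of 16 H3K9 and heterochromatin genes, 5 were higher (Suv39h1 among them) and 2 lower in the ovary, and 5 were higher in allogeneic spleens. Suv39h2, the paralogue of Suv39h1, was lower in the ovary (-0.75 ± 0.16). All 5 macrophage markers were lower in CD8 than in CD4 cells in the ovary (median -3.85) and in allogeneic spleens (median -2.89), and 3 of 5 in syngeneic spleens (median -2.38). Their mean level was -1.78 to -1.47 in ovarian CD8 and 1.05 to 2.51 in ovarian CD4 arrays, and their part in these results was not tested.

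Ovarian and splenic cells of allogeneic recipients were compared to ask whether these regulators differ in the target organ. By limma 0 of the 10 genes were called in CD8 cells, where 0.539% of all features were. Of the 10 genes 0 had an unadjusted p under 0.05, as against 1897 of 22830 features. In CD8 cells Uhrf1 differed between ovary and spleen by -0.01 ± 0.24 (95% interval -0.54 to 0.51) and Ezh2 by -0.06 ± 0.16 (-0.40 to 0.28). For Uhrf1 the flagged splenic spot was left out. Its other probe aside, the alternatives gave Uhrf1 differences from -0.16 to 0.31, with 0 calls. The largest differences were those of Tet1, at -3.08, -3.25, -2.60 and -3.87 in ovarian and -2.50, -2.49 and -2.30 in splenic CD8 cells (-0.76 ± 0.37, adjusted p = 0.628), and of Tet3, at -1.45, -1.38, -0.68 and -1.21 in ovarian and -2.15, -1.77 and -1.13 in splenic CD8 cells (0.51 ± 0.24, adjusted p = 0.61). Only Tet1 had arrays without overlap, as did 12.7% of all features. Kdm6b was at 2.54 in ovarian CD8 replicate 3 and between 1.05 and 1.38 in the other ovarian CD8 arrays.

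In CD4 cells 0 of the 10 genes were called between ovary and spleen by limma, where 0.907% of all features were. An unadjusted p under 0.05 was found for 3576 of 22830 features and for 3 of the 10 genes. Uhrf1 read 4.02 and 4.67 in ovarian CD4 cells, against 3.61 and 3.17 in splenic CD4 cells (0.96 ± 0.28, adjusted p = 0.144), and Dnmt1 read 0.80 and 1.21 in ovarian CD4 cells, against 0.30 and 0.17 in splenic CD4 cells (0.77 ± 0.23, adjusted p = 0.151). Neither gene's arrays overlapped, as for 33.7% of all features, and 2 of 26 replication and mitosis genes were higher in ovarian CD4 cells, Ccnb2 by 0.99 ± 0.20 and Birc5 by 1.68 ± 0.34 (list median 0.74). Tet1 read -1.60 and -3.33 in ovarian CD4 cells, the second not well above background, against -0.77 and -1.61 in splenic CD4 cells. The difference was -1.27 ± 0.49 (adjusted p = 0.235). Without ovarian replicate 1, which leaves only that second ovarian reading, it was -2.14. Another probe of Tet1, well above background on all 16 arrays, had -0.09 ± 0.23 (adjusted p = 0.917). Dnmt3b had -0.35 ± 0.30, which did not pass. Leaving out 1 array at a time gave from -0.96, without splenic replicate 2, to 0.26. Its other probes had the opposite sign and did not pass by limma (0.57 ± 0.20 and 0.44 ± 0.26, adjusted p = 0.216 and 0.455).

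The difference between subsets in the ovary minus spleen comparison was called for 0 of 22830 features by limma (0.00%), with 2539 at an unadjusted p under 0.05. Among the 10 genes Dnmt1 (-0.93 ± 0.29, adjusted p = 0.314) and Uhrf1 (-0.97 ± 0.37, adjusted p = 0.384) had an unadjusted p under 0.05. Dnmt3b had 0.52 ± 0.38, and leaving out 1 array at a time gave from -0.09 to 1.13, the latter without CD4 splenic replicate 2. By its other probes the direction was the opposite. Their ovary minus spleen differences were smaller in CD8 (0.14 and 0.09) than in CD4 cells (0.57 and 0.44). In none of the lists of related genes was a gene called here.

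**Figure D5:**
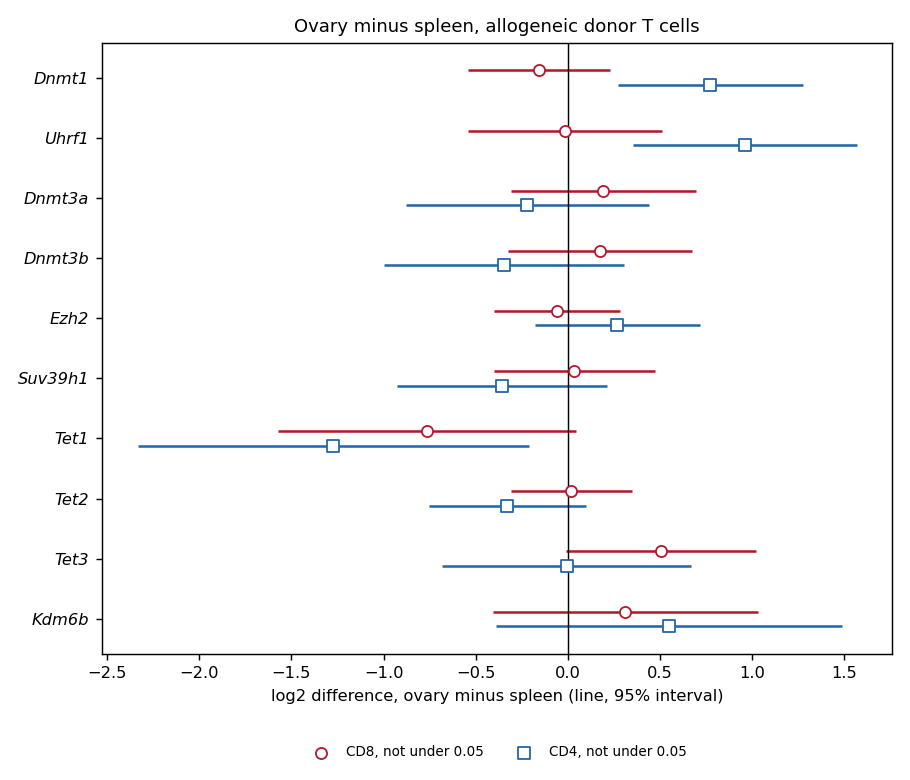
Log2 difference of each gene between ovarian and splenic cells of allogeneic recipients, in CD8 cells (circles) and CD4 cells (squares), with 95% intervals from limma; open symbols have an adjusted p of 0.05 or more. No gene has a filled symbol, and the differences run from -1.27 for Tet1 to 0.96 for Uhrf1, both in CD4 cells.

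Across the 6 groups, Uhrf1 averaged 4.81 ± 0.10 in ovarian CD8 (SD, n = 4), 4.82 ± 0.18 in allogeneic splenic CD8 (n = 2), 4.35 ± 0.46 in ovarian CD4, 3.39 ± 0.31 in allogeneic splenic CD4 (n = 2 each), 1.94 ± 0.35 in syngeneic splenic CD8 (n = 3) and 2.00 ± 0.28 in syngeneic splenic CD4 cells (n = 2). Neighbours in this order overlapped for the 2 allogeneic CD8 groups and the 2 syngeneic groups, and the other steps had no overlap. Ezh2 had the same top 4 groups, with the overlap also between the 2 allogeneic CD4 groups, and its syngeneic CD8 arrays lay below its syngeneic CD4 arrays. Dnmt1 was highest in both allogeneic CD8 groups (1.47 ± 0.06 in the ovary and 1.62 ± 0.28 in the spleen), lower in ovarian CD4 cells (1.01 ± 0.30) and overlapped in the other 3 groups. Dnmt3b was at 3.35 ± 0.13 and 3.17 ± 0.21 in ovarian and allogeneic splenic CD8 cells, above all other groups.

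Tet1 averaged -3.20 ± 0.52 in ovarian CD8 and -2.43 ± 0.11 in allogeneic splenic CD8 cells, against 1.38 ± 0.10 in syngeneic splenic CD8 cells, and -2.46 ± 1.23 in ovarian CD4 and -1.19 ± 0.59 in allogeneic splenic CD4 cells, against 1.29 ± 0.06 in syngeneic splenic CD4 cells. Tet3 and Kdm6b were likewise highest in both syngeneic groups, and their 4 allogeneic groups formed a run in which each neighbour in the order overlapped with the next. For Dnmt3a and Tet2 every neighbour in the order of the groups overlapped with the next. For Suv39h1 the ovarian CD4 arrays alone lay apart, below the others.

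The genes with the most similar pattern over the 16 arrays were named by Pearson r among 13695 symbols, as a description in which arrays of a group are not independent of each other. For Uhrf1 (15 arrays) these included Lig1 and Kif20a, with r of 0.995 and 0.994, and for Ezh2 Aspm, Sgo1 and Spag5, with r from 0.993 to 0.996. Dnmt1 was nearest to Rasl2-9, Pbdc1 and Sec23b (0.979 to 0.982) and Dnmt3b to Engase, Cd164 and Sh3yl1 (0.956 to 0.973). Tet1 was nearest to Rflnb, Ccr7 and Ppm1l (0.976 to 0.986), Tet3 to Tekt4, Rps6ka3 and Kdm7a (0.948 to 0.959) and Kdm6b to Msantd1, Btaf1 and Tmem132a (0.942 to 0.957). The genes that varied least had the lowest values, with Dnmt3a nearest to Glt8d1 (0.882), Suv39h1 to Mak16 (0.893) and Tet2 to Ncoa4 (0.855).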

How the data were processed

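RNA of sorted donor T cells was labelled with Cy3 and hybridised to 16 one-colour Agilent arrays. The deposited spot intensity values are background-subtracted processed signals that, per the file headers, the scanner software Feature Extraction (version 11.5.1.1) wrote. The deposited series table holds log2 values made by the authors, used as an alternative; its columns correlated with the centred scanner values at r of at least 0.9998, and column medians ran from -0.344 to 0.494.

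Each intensity was divided by its array's 75th percentile over non-control spots and log2-transformed, and outlier-flagged spots were left out. A probe was kept where all arrays of 1 or more groups read it well above background (31114 of 55681). Of all probes, 27656 were named by accession through RefSeq (GRCm38.p6) and 28025 were not. The brightest probe per gene was used, leaving 22830 features. Group means were fitted with limma 3.58.1 in R 4.3.3 on all arrays (10 residual degrees of freedom), with Benjamini-Hochberg adjustment over all features and a threshold of 0.05. Between 41.8% and 59.4% of spots per array were well above background and 0 were saturated; the small number of arrays limits the precision. The fit was tested on simulated data. Figures were drawn with matplotlib 3.10.9.

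The comparisons were ovary against spleen, allogeneic against syngeneic and CD8 against CD4 cells, and the interactions of subset with transplant and tissue. Alternatives were other normalizations, filters, probes, slides, blocks, weights and left-out arrays. Named genes are the 10 members, genes of the related lists that passed the test, and up to 3 most similar genes each; some genes that met this rule are not reported here. The 10 genes and the lists were chosen with earlier results of these data known.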

Additional observations from a re-analysis of the deposited data

Results flagged for a closer look

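In ovarian CD8 cells, the only group of 4 arrays, 3 of the 10 genes had an array far from the others by Dixon's test, where chance marks about 1 in 20 groups. Dnmt3a read 1.65 in replicate 3, and the nearest of the other arrays was at 2.14. Dnmt3b read 3.15 in the same replicate, with the nearest at 3.38, and Tet2 read 2.89 in replicate 2, with the nearest at 2.75. The allogeneic minus syngeneic difference was larger in CD8 than in CD4 cells by limma's interaction test for Dnmt1 (1.06, adjusted p = 0.0399), Uhrf1 (1.49, adjusted p = 0.0275) and Ezh2 (1.46, adjusted p = 0.00592). Of 24 alternatives, 12 lost the call for Dnmt1, 14 for Uhrf1 (among them quantile normalization, normexp and the authors' series table) and 1 for Ezh2.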

How the results depend on the processing

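Of 90 pairs of a gene and a comparison, 22 were called, and no called difference changed sign under an alternative. Counts of called genes moved by over 1.5 times as follows. Between allogeneic and syngeneic CD8 cells, 7 became 3 on slide 2 alone, and leaving out each array gave 7 to 7. Between allogeneic and syngeneic CD4 cells, 4 became 2 with no filter on dim probes, 2 with probes well above background on all arrays, and 0 on slide 2 alone, with estimated array weights and with only the compared groups fitted, and leaving out each array gave 1 to 4. Between CD8 and CD4 cells of the ovary, 3 became 1 with quantile normalization, with normexp, with no filter and with the replicate block, and 0 on slide 2 alone, with 1 to 2 when each array was left out. In allogeneic spleens, 5 became 0 on slide 2 alone and with only the compared groups fitted, with 4 to 5 when each array was left out, and in syngeneic spleens 0 stayed 0 in all alternatives. For the interaction with transplant, 3 became 1 with no filter and with only the compared groups fitted, and 0 on slide 2 alone, with 1 to 4 when each array was left out. Between ovary and spleen, 0 became 3 in CD8 cells with array weights (Dnmt3b, Tet1 and Tet3), and 1 in CD4 cells with normexp (Dnmt1), on slide 1 alone and without the 2 dimmest arrays (Dnmt3b), with 0 to 0 and 0 to 1 when each array was left out. For the interaction with tissue, 0 became 1 (Dnmt3b) on slide 1 alone and without the 2 dimmest arrays, with 0 to 1 when each array was left out. Slide 2 alone and the compared groups alone leave fewer arrays. Under the filter for probes well above background on all arrays, no probe of Uhrf1 was kept and the gene was not tested. Its brightest probe was well above background on every array except allogeneic splenic CD8 replicate 1. There the outlier-flagged spot had been left out and counted as not well above background, so dim signal was not the reason. Under the same filter Tet1 was read by another probe, which did not pass between the CD4 groups by limma (-0.49, adjusted p = 0.146). For the other settings the cause was not tested. Leaving out the 2 dimmest arrays and keeping outlier-flagged spots were chosen after seeing the data. Same-numbered replicates did not deviate together in all pairs (r from -0.44 to 0.454), so the numbers are not taken to pair samples; over all 90 pairs the replicate block lost 4 calls and gained 2, with the interaction of Uhrf1 with transplant among those lost (1.45, adjusted p = 0.0607). The median difference of all features between allogeneic and syngeneic CD8 cells was -0.16, against -0.084 with quantile normalization and -0.037 with normexp. Dim signal limits Tet1, which was not well above background in replicate 2 of ovarian CD4 cells.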
